A study of Mus musculus with 12 samples.

Results

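Tubulins are the proteins that microtubules are built from. The report covers 10 tubulin genes of the mouse, taken by their symbols from the 23420 genes of a kidney count table: the α-tubulins Tuba1a, Tuba1b, Tuba1c and Tuba4a, and the β-tubulins Tubb2a, Tubb2b, Tubb3, Tubb4b, Tubb5 and Tubb6. All 10 had counts and all 10 entered the test. They were measured in 12 kidneys of male C57BL/6J mice, 4 of them controls and 8 of them taken after the renal pedicle had been clamped and released.

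The labels give 20 min of ischemia and kidney collection after 24 h, and they give this for the controls as well. The methods of the study describe the controls as normal kidneys obtained by nephrectomy, and the mice as adults. One comparison of the study was between ischemia performed in awake and in anaesthetised mice. For the 8 ischemic kidneys the title and the group field name opposite conditions, so neutral names are used here. Ischemia set A (n = 4) is anaesthetised by its titles and conscious by its group field, and ischemia set B (n = 4) is conscious by its titles and anaesthetised by its group field. No direction is given to anaesthesia. Whether a control kidney came from a mouse that also gave an ischemic kidney is not given in the sources used here. Ischemia, earlier surgery and time after it cannot be told apart in the comparisons with the controls.

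Microtubules are polymers of a dimer of α- and β-tubulin, and each of the dimer's chains is encoded by several genes called isotypes. The isotypes share a conserved core and differ mostly in a short acidic tail at the carboxyl end, which faces outwards and carries most of the chemical modifications read by motors and other binding proteins. In kidney tubules, microtubules run along the height of the epithelial cell, carry vesicles between its poles and form the core of the primary cilium. Cells adjust their tubulin by a feedback on mRNA: when free dimer is abundant, the factor TTC5 recognises the first residues of a tubulin chain leaving the ribosome and has the mRNA degraded through the CCR4-NOT deadenylase. Of the β-tubulins, Tubb3 is best known from neurons, Tubb4b from cilia, and Tubb5 and Tubb6 from many cell types.

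The first bases of the coding sequence are shown because they encode the residues that this feedback reads. They are taken from the GENCODE M21 transcripts on GRCm38 (mm10), 5′ to 3′, with the first 4 codons in capitals:
Tuba1a: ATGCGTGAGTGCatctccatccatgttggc
Tuba1b: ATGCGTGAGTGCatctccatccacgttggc
Tuba1c: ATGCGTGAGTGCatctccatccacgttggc
Tuba4a: ATGCGCGAGTGCatttcagtccatgtgggg
Tubb2a: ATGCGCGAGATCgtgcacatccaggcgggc
Tubb2b: ATGCGAGAGATCgtgcacattcaggcgggc
Tubb3: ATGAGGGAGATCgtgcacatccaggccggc
Tubb4b: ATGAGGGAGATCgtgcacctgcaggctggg
Tubb5: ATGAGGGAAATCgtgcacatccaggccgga

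The α- and β-genes differ in the fourth codon, TGC in the 4 α-genes and ATC in the 5 β-genes shown. The third codon is GAG in all of them but Tubb5, which has GAA.

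The last 48 bases of the coding sequence are shown for 7 of the genes because they encode the variable tail, where isotypes are known to differ. The last codon and the stop codon are in capitals:
Tuba1c: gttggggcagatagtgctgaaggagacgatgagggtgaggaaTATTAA
Tuba4a: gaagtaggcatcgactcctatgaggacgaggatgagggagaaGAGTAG
Tubb2a: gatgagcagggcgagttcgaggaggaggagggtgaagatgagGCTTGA
Tubb2b: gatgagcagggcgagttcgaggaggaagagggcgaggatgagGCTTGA
Tubb3: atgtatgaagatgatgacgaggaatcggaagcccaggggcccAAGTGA
Tubb4b: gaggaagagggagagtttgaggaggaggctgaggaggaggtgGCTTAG
Tubb5: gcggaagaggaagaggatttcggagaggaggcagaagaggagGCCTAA

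Tuba1c ends in a tyrosine codon (TAT), the residue that vasohibins remove and tubulin tyrosine ligase puts back. Tuba4a ends in GAG and has no tyrosine codon at this position.

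The coding sequences of Tuba1a, Tuba1b and Tuba1c were 97.6% to 98.4% identical to each other, and 85.3% to 85.9% identical to that of Tuba4a. Those of Tubb2a and Tubb2b were 96.5% identical, and every other pair of the 6 β-genes lay between 80.7% and 86.5%. This bears on the counts, because a read from a stretch that occurs at several places of the genome cannot be placed. Of all windows of 100 bases along the transcripts, 65.1% in Tuba1a, 69.5% in Tuba1b and 53.4% in Tuba1c also occurred in another annotated gene. Gm49450, annotated over Tuba1a and Tuba1b, was among these genes. The percentages of Tuba1a and Tuba1b can therefore include windows at a single place of the genome, whose reads can be placed. The percentage was 36.9% in Tubb2a and 27.7% in Tubb2b, which share windows with each other, and 29.2% in Tubb4b, which shares windows with pseudogenes. It was 0 in Tuba4a, Tubb3, Tubb5 and Tubb6. How the counting treated reads that map to several genes is not given in the sources used here, so the levels of the first 6 of these genes carry that uncertainty.

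Tuba1b (chr15:98931425-98934565, minus strand), Tuba1a (chr15:98949837-98953703, minus strand) and Tuba1c (chr15:99029891-99038110, plus strand) lie next to each other in mm10. Tubb2a (chr13:34074274-34078007) and Tubb2b (chr13:34126748-34130466) are neighbours too, both on the minus strand. The others are scattered, with Tuba4a at chr1:75214228-75219865 (minus), Tubb4b at chr2:25222160-25224702 (minus), Tubb3 at chr8:123411424-123422015 (plus) and Tubb5 at chr17:35833921-35838306 (minus). Tuba4a overlaps Stk16 on the opposite strand over 1379 bases. The libraries were stranded, but the strand setting of the counting is not given in the sources used here. The annotation also places Gm49450 over Tuba1a and Tuba1b and Gm20388 over Tubb3, on the same strand, and neither of these is a row of the count table.

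The promoters of Tubb2a, the β-tubulin with the highest mean level after ischemia, and of Tubb4b, the member with the smallest rise, are shown as the 100 bases before the RefSeq start on GRCm38.p6, read along the gene's strand. The capitals mark TATAA, the core of the TATA box, and CCAAT, the box bound by NF-Y:
Tubb2a, chr13:34078009-34078108, minus strand: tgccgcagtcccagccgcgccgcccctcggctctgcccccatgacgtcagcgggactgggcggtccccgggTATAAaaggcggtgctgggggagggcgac
Tubb4b, chr2:25224703-25224802, minus strand: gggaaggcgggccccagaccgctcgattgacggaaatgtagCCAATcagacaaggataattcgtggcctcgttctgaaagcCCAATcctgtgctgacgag

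RefSeq promoters were matched for 8 of the 10 members, all but Tubb2b and Tubb6, and 250 bases before the start were searched on both strands. TATAA was found in 3 of the 8 (Tuba1a, Tubb2a and Tubb3) and in 22.8% of 32851 promoters of all genes. CCAAT was found in 5 (Tuba1a, Tuba1c, Tubb3, Tubb4b and Tubb5) and in 33.8% of all. GGAATG, the core bound by TEAD factors, was found in 1 (Tubb5) and in 12.6% of all. TGANTCA, the AP-1 motif, was found in 0 of the 8 and in 6.75% of all. None of these motifs contains another, and they were picked after the sequences had been seen.

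Total counts per kidney lay between 15367342 and 44793350, and 11664 genes passed the filter on low counts. Levels are given as CPM, counts scaled to library size with TMM factors, and 3 counts, taken as the detection floor, came to 0.0661 to 0.190 CPM. The kidney label was checked with its markers. The 4 proximal tubule markers (Lrp2, Slc34a1, Slc5a2 and Cubn) summed to 5685 to 6240 CPM in the controls, 467 to 882 across set A and 286 to 1028 across set B, and all 4 were lower in each set. Of 5 markers of injured tubules, 4 were higher in each set (Havcr1, Krt20, Lcn2 and Sox9), with sums of 3.74 to 9.95 CPM in the controls, 157 to 214 across set A and 145 to 171 across set B. The 4 markers of the loop, distal tubule and collecting duct summed to 2439 to 2813 CPM in the controls, 1020 to 1368 across set A and 940 to 1791 across set B, and 1 of them, Slc12a1, was lower in each set. In bulk tissue, fewer cells of a type and less RNA per cell cannot be told apart, and the part of these shifts in the tubulin values was not tested.

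All 10 tubulins rose in set A and all 10 rose in set B, at an adjusted p under 0.05 by the quasi-likelihood test of edgeR. Of all 11664 genes tested, 10.5% were called higher in set A against control and 10.9% in set B against control. In all 10 the lowest ischemic kidney of either set lay above the highest control. Such a gap upwards was found in 12.6% of all genes tested for set A and 11.6% for set B. The median log2 fold change was 2.12 for the 4 α-genes and 3.13 for the 6 β-genes in set A, and 2.13 and 3.04 in set B, beside -0.02 for all genes in each. The sets share their controls, so they are not independent of each other. Summed over the 10 genes, tubulin took 0.295% ± 0.0313 (SD, n = 4) of all counts in the controls, 1.39% ± 0.0923 for set A and 1.39% ± 0.219 for set B.

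**Figure D1:**
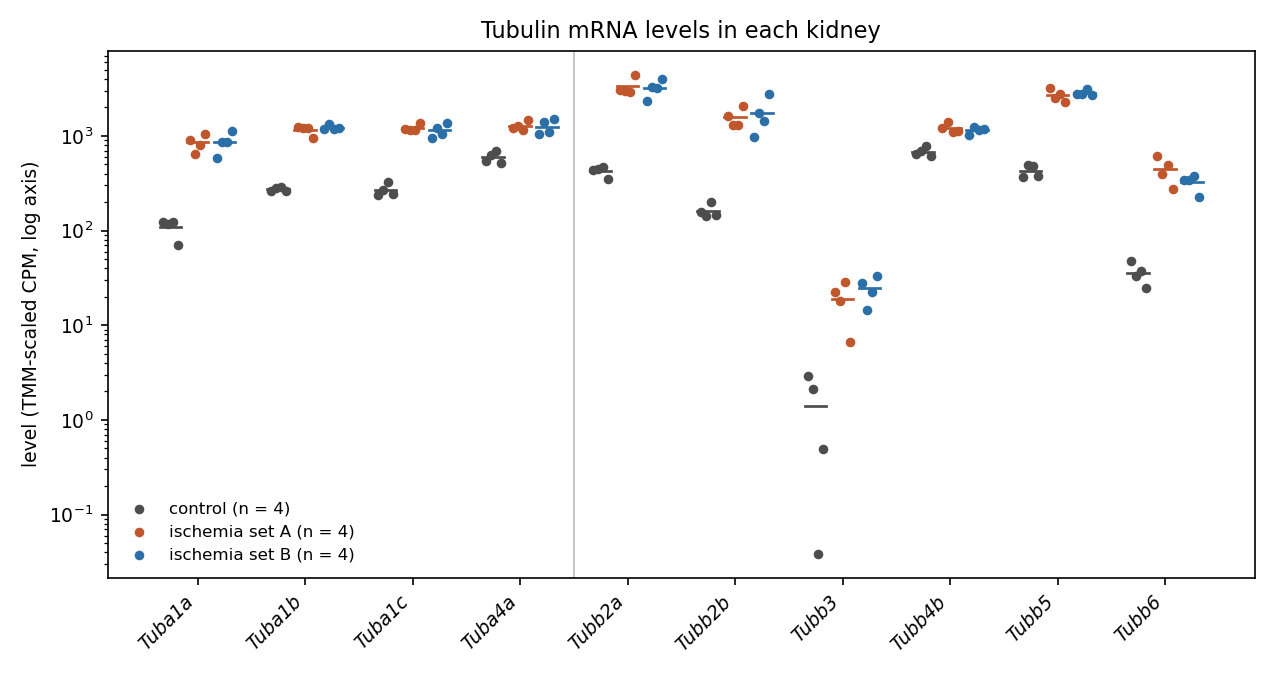
Level of each tubulin mRNA in each of the 12 kidneys, in TMM-scaled CPM on a log axis (points, kidneys, in replicate order from left to right; lines, group means; n = 4 per group; α-tubulins left of the vertical line, β-tubulins right). In every gene all 8 ischemic kidneys lie above all 4 controls, and the 2 ischemia sets overlap.

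Tuba1a, the α-tubulin best known from developing neurons, had the largest rise of the α-genes. The controls held 122, 118, 124 and 70.7 CPM, set A 915, 651, 802 and 1059, and set B 581, 872, 853 and 1116. Control replicate 4 was the lowest of the 12 kidneys, and the 2 ischemia sets covered much the same range. The rise came to a log2 fold change of 2.98 ± 0.21 (SE) in set A (adjusted p = 3.91e-09, edgeR) and 2.98 ± 0.21 in set B (adjusted p = 3.56e-09), 7.89-fold and 7.87-fold.

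Tuba1b, the common α-tubulin of most cell types, varied little among the controls, at 262, 279, 289 and 263 CPM. It stood at 1248, 1209, 1202 and 943 CPM in set A and at 1179, 1337, 1187 and 1199 in set B. Replicate 4 of set A was the lowest ischemic kidney and still lay far above the controls. On the log2 scale it rose by 2.07 ± 0.11 in set A (adjusted p = 1.32e-10, edgeR) and 2.16 ± 0.11 in set B (adjusted p = 8.96e-11).

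Tuba1c, a close relative of both, stood at 237, 269, 328 and 245 CPM in the controls. It stood at 1182, 1163, 1148 and 1382 CPM in set A and at 952, 1223, 1058 and 1360 in set B, with replicate 4 the highest of each set. On the log2 scale it rose by 2.18 ± 0.14 in set A (adjusted p = 6.83e-10, edgeR) and 2.09 ± 0.14 in set B (adjusted p = 1.25e-09). The rises of Tuba1b and Tuba1c thus came to 4.21-fold and 4.52-fold in set A, and 4.48-fold and 4.25-fold in set B.

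Tuba4a, the α-tubulin without the tyrosine codon at its end, rose least of the α-genes. The control kidneys held 541, 629, 691 and 512 CPM, those of set A 1217, 1271, 1148 and 1463, and those of set B 1040, 1389, 1103 and 1500. Replicate 4 was again the highest of each set. The log2 fold change was 1.10 ± 0.14 in set A (adjusted p = 4.22e-06, edgeR) and 1.08 ± 0.14 in set B (adjusted p = 5.47e-06), or 2.15-fold and 2.12-fold.

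Among the β-tubulins, Tubb2a, a widely expressed isotype, had the highest level per kilobase of all 10 genes after ischemia. The controls held 434, 452, 469 and 349 CPM, set A 3047, 2959, 2905 and 4435, and set B 2359, 3301, 3181 and 4031. Replicate 4 was the highest of each ischemia set and the lowest of the controls. The log2 fold change was 2.97 ± 0.17 in set A (adjusted p = 2.00e-10, edgeR) and 2.92 ± 0.17 in set B (adjusted p = 2.56e-10), 7.83-fold and 7.55-fold.

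Tubb2b, its close copy and a gene known for its part in cortical development, started lower, at 156, 142, 201 and 146 CPM in the controls. It stood at 1641, 1302, 1292 and 2076 CPM in set A and at 966, 1755, 1429 and 2789 in set B. The spread within set B was the widest of the well-counted members, and its lowest kidney, replicate 1, and its highest, replicate 4, lay on either side of the range of set A. The log2 fold change was 3.29 ± 0.25 in set A (adjusted p = 9.29e-09, edgeR) and 3.43 ± 0.25 in set B (adjusted p = 6.13e-09), 9.78-fold and 10.7-fold.

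Tubb5, the general β-tubulin of dividing and non-dividing cells, stood at 364, 494, 487 and 373 CPM in the controls. It stood at 3223, 2499, 2748 and 2261 CPM in set A and at 2806, 2764, 3140 and 2713 in set B, with a wide gap between the controls and either set. By p-value it ranked 4 of 11664 genes in set A and 5 in set B. On the log2 scale it rose by 2.64 ± 0.13 in set A (adjusted p = 8.74e-11, edgeR) and 2.73 ± 0.13 in set B (adjusted p = 5.18e-11).

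Tubb6, a divergent β-tubulin, was scarce in the controls, at 47.7, 33.3, 37.6 and 25 CPM. It stood at 619, 393, 498 and 276 CPM in set A and at 342, 342, 382 and 227 in set B. Here replicate 4 was the lowest kidney of every group, whereas it was the highest of each ischemia set for Tubb2a and Tubb2b. The log2 fold change was 3.64 ± 0.25 in set A (adjusted p = 2.09e-09, edgeR) and 3.17 ± 0.24 in set B (adjusted p = 9.05e-09), 12.4-fold and 9.01-fold.

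Tubb3, the isotype used as a marker of neurons, was by far the scarcest, with 61, 81, 1 and 19 counts in the controls, or 2.92, 2.10, 0.0386 and 0.496 CPM. It stood at 22.5, 17.9, 28.4 and 6.68 CPM in set A and at 28.3, 14.5, 22.3 and 33.3 in set B. The lowest ischemic kidney, replicate 4 of set A, held 111 counts. The log2 fold change was 3.78 ± 0.72 in set A (adjusted p = 5.36e-04, edgeR) and 4.15 ± 0.73 in set B (adjusted p = 2.52e-04), the widest errors of the 10. Without control replicate 1 these were 4.40 and 4.76, and with limma-trend 4.38 and 4.87, the fold thus moving by over 1.5 times. Neuronal markers were scarce but not absent: the 8 listed genes together held 0 to 4.00 CPM in the controls, 1.06 to 5.78 across set A and 0 to 0.707 across set B. In all kidneys of the group, 6 of the 8 were at or under the floor for the controls, 3 for set A and 7 for set B. The highest were Uchl1, with up to 108 counts in a control and 58 in a kidney of set A, and Elavl4, with up to 76 in a kidney of set A. Uchl1, the 1 that could be tested, passed in neither comparison.

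Tubb4b, the β-tubulin of cilia and the most abundant one in the controls, rose least of all 10. The controls held 642, 691, 780 and 619 CPM, set A 1203, 1417, 1111 and 1127, and set B 1026, 1244, 1145 and 1190. The kidneys within each group differed little, and neither ischemia set overlapped with the controls. The log2 fold change was 0.83 ± 0.11 in set A (adjusted p = 1.64e-05, edgeR) and 0.75 ± 0.11 in set B (adjusted p = 5.14e-05), 1.78-fold and 1.69-fold.

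**Figure D2:**
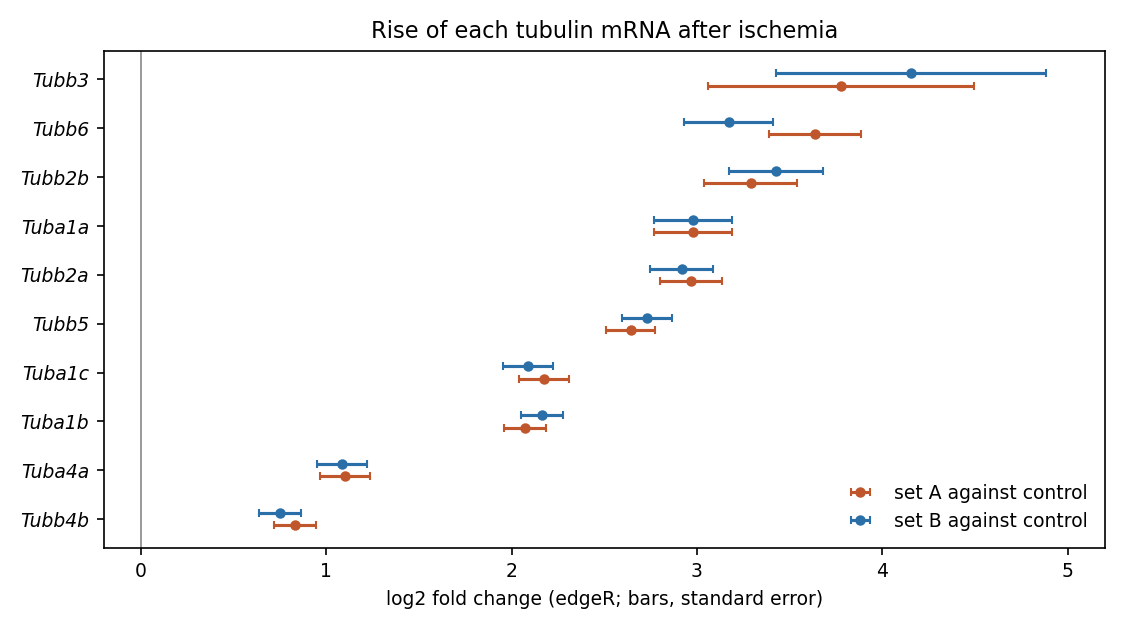
Log2 fold change of each tubulin against the 4 controls for ischemia set A and set B (points, edgeR estimates from 4 kidneys per group; bars, standard error), ordered by the value in set A. The values run from 0.83 and 0.75 in Tubb4b to 3.78 and 4.15 in Tubb3.

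Dividing cells need tubulin for their spindles, so markers of proliferation are given beside these rises. The 6 listed genes summed to 9.06 to 10.6 CPM in the controls, 24.9 to 31.6 across set A and 25.2 to 41.0 across set B. The 2 that could be tested, Cdk1 and Top2a, were called higher in each set. Cdk1, the kinase that drives entry into mitosis, was near the floor: it held 0 counts in all 4 controls and in 2 kidneys of set B, means of 1.81 CPM for set A and 0.868 for set B, and adjusted p = 0.0337 and 0.0492 (edgeR). Ccnb1, its cyclin partner, was under the filter and held 0 counts in all 8 ischemic kidneys. Top2a, a topoisomerase of the dividing cell, made up most of these sums, with means of 9.0 CPM in the controls, 24.9 for set A and 31.6 for set B. The fibroblast markers summed to 385 to 495 CPM in the controls, 909 to 2500 across set A and 1121 to 2344 across set B, and 2 of the 3 tested, the collagens Col1a1 and Col3a1, were higher in each set. The 4 endothelial markers summed to 33.4 to 62.3 CPM over all 12 kidneys, and 0 of 3 tested passed in either set. The 5 myeloid markers in the table summed to 42.3 to 65.0 CPM in the controls, 9.41 to 24.7 across set A and 6.16 to 32.2 across set B, where 1 of 2 tested, Csf1r, was lower. The 2 red blood cell genes in the table held 0 counts, and markers of fat and adrenal tissue at most 1.57 CPM. The part of these cell types in the tubulin values was not tested.

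Because the genes rose by different amounts, the make-up of tubulin mRNA shifted. To compare genes with each other, CPM was divided by the length of the exons in kilobases, and each gene was taken as a share of its class. Tuba4a went from 33.0% ± 0.918 (SD, n = 4) of α-tubulin mRNA in the controls to 17.5% ± 1.39 for set A and 17.2% ± 0.911 for set B. Tuba1a went from 12.4% ± 2.32 to 24.0% ± 3.62 and 23.8% ± 3.37. In both of these genes the share of every ischemic kidney lay outside the range of the controls, while the shares of Tuba1b (30.3% ± 2.12, 31.4% ± 4.93 and 33.6% ± 4.03) and Tuba1c (24.3% ± 1.53, 27.1% ± 1.42 and 25.4% ± 0.645) overlapped. On raw counts without a length, the share of Tuba1c did not overlap with the controls and was higher in each set.

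The β-class changed its leading gene. Tubb4b made up 40.6% ± 1.33 of β-tubulin mRNA in the controls, 13.6% ± 2.54 for set A and 13% ± 1.53 for set B. Tubb2a went from 32.8% ± 1.68 to 47.4% ± 5.35 and 46.1% ± 1.95, and Tubb2b from 8.72% ± 0.936 to 15.7% ± 1.87 and 17.0% ± 4.69. In these 3 genes neither ischemia set overlapped with the controls. The shares of Tubb5 (16.0% ± 1.49, 18.8% ± 3.71 and 20.4% ± 4.04), Tubb6 (1.83% ± 0.473, 4.3% ± 1.53 and 3.20% ± 1.02) and Tubb3 (0.0942% ± 0.0911, 0.242% ± 0.130 and 0.312% ± 0.114) overlapped with those of the controls. The shares are described by their ranges and were not tested.

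The shares depend on the lengths used. As a second length, the exon length was scaled by the percentage of 100-base windows, from a chosen transcript of each gene, that no other annotated gene shares. With this length, called unshared windows here, Tuba4a stood at 15% in the controls, 7.09% for set A and 6.88% for set B. Tuba1b then led the α-class at 45.1%, 41.5% and 44.0%. Under these lengths the same 5 genes (Tuba1a, Tuba4a, Tubb2a, Tubb2b and Tubb4b) had shares that did not overlap with the controls, in the same directions. Per kilobase of whole exons, the summed level of the β-genes was 1.67 ± 0.0230 times that of the α-genes in the controls, 2.20 ± 0.133 times in set A and 2.18 ± 0.134 times in set B. With the unshared windows as length it was 1.05 ± 0.0141, 1.24 ± 0.127 and 1.21 ± 0.0972 times. With either length, neither set overlapped with the controls.

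**Figure D3:**
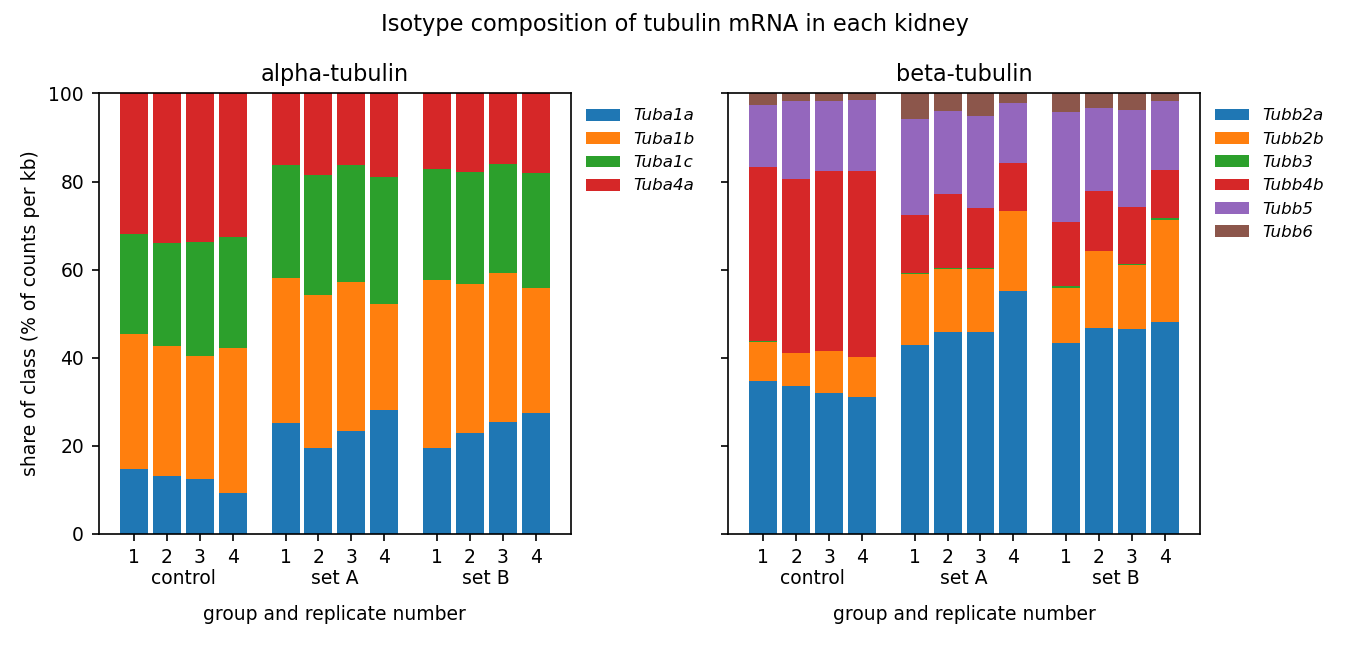
Share of each isotype in the α-tubulin (left) and β-tubulin (right) mRNA of each kidney, in percent of counts per kilobase of exon (bars, kidneys 1 to 4 of the controls, set A and set B). Tubb4b fills 40.6% of the β-tubulin bar on average in the controls and 13.6% and 13% in the 2 ischemia sets, and Tubb2a holds the largest share in all 8 ischemic kidneys.

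In level per kilobase of whole exons, the order in the controls was Tubb4b (327 CPM per kb on average), Tubb2a (265), Tuba4a (160), Tuba1b (146), Tubb5 (129), Tuba1c (118), Tubb2b (70.4), Tuba1a (60.3), Tubb6 (14.7) and Tubb3 (0.745). The ranges of the 4 kidneys overlapped between Tuba4a, Tuba1b, Tubb5 and Tuba1c, each with its neighbour, and between Tubb2b and Tuba1a. Within single kidneys, Tuba1b was above Tubb5 and Tubb5 above Tuba1c in 4 of 4 controls, and Tuba4a was above Tuba1b and Tubb2b above Tuba1a in 3 of 4. No test was run on this order. The order in set A was Tubb2a (2072 CPM per kb), Tubb5 (806), Tubb2b (688), Tuba1b (614), Tubb4b (582), Tuba1c (533), Tuba1a (475), Tuba4a (344), Tubb6 (183) and Tubb3 (10.1), and set B had the same order. Tubb4b stood at rank 1 in the controls and rank 5 in each set, and Tuba4a at rank 3 and rank 8. These ranks depend on the lengths: with the unshared windows as length, Tuba1b was at rank 1 in the controls (478 CPM per kb), Tubb4b at rank 2 (462) and Tuba4a at rank 6 (160). In set A Tubb4b was then at rank 6 and in set B at rank 7, with Tuba4a at rank 8 in each. Tubb5, at rank 2 in each set by whole exons, was at rank 7 in set A and rank 6 in set B. Tuba1a went from rank 7 by whole exons to rank 3 in each set. In the order by whole exons, neighbours from Tubb5 to Tuba4a overlapped in set A, and in set B they did as well except for Tuba1b (629 to 713 CPM per kb) and Tubb4b (491 to 596). Of these overlapping neighbours, Tuba1a was above Tuba4a in 4 of 4 kidneys of each set, and Tuba1c above Tuba1a in 4 of 4 of set A and 2 of 4 of set B.

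Set B against set A asks whether the circumstances of the ischemia, whichever set is the awake one, went with a different tubulin response. At an adjusted p under 0.05, 0 of the 10 tubulins differed (edgeR, quasi-likelihood), and 1 had an unadjusted p under 0.05. Of all genes tested, 0.00857% were called and 5.03% had an unadjusted p under 0.05. DESeq2 and limma-trend also called 0 of the 10. The kidneys of the 2 sets overlapped in all 10 genes, while 2.61% of all genes did not overlap. The gene with an unadjusted p under 0.05 was Tubb6, whose log2 fold change was -0.47 ± 0.22 (95% interval -0.93 to -0.0017, adjusted p = 0.983, edgeR).

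The intervals of the other 9 genes all included 0 and differed widely in width. That of Tuba1b, the narrowest, ran from -0.14 to 0.32 on the log2 scale, and that of Tubb4b from -0.31 to 0.16. Those of Tuba1c (-0.36 to 0.19), Tubb5 (-0.17 to 0.35), Tuba4a (-0.30 to 0.26) and Tubb2a (-0.38 to 0.27) were of like size. Those of Tuba1a (-0.41 to 0.41), Tubb2b (-0.34 to 0.62) and Tubb3 (-0.95 to 1.70) were wider.

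The 8 ischemic kidneys differed from each other more in some tubulins than in others. The coefficient of variation of CPM was 9.38% for Tuba1b, 9.78% for Tubb4b and 11.3% for Tubb5, but 32.3% for Tubb6, 34.3% for Tubb2b and 39.5% for Tubb3. The highest kidney held 1.38 times the CPM of the lowest for Tubb4b and 4.99 times for Tubb3. Tuba1a, Tuba1c, Tuba4a, Tubb2a and Tubb2b moved together across these kidneys, with Pearson correlations of log2 CPM between 0.74 and 0.95 (n = 8). Tuba1b, Tubb3, Tubb5 and Tubb6 had correlations of -0.58 to -0.09 with these 5 genes and of 0.20 to 0.65 with each other. Tubb6 had -0.58 to -0.34 with the 5 genes, and the highest among the 4 were those of Tubb5 with Tuba1b (0.65) and Tubb3 (0.63) and of Tuba1b with Tubb3 (0.62).

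These correlations are descriptions of 8 points that share their library and its depth. Log2 total counts correlated with log2 CPM at -0.72 for Tuba4a, -0.70 for Tubb2a, -0.68 for Tubb2b and 0.77 for Tubb6. Replicates 4 of set A and set B, with 16814285 and 15367342 counts, were among the 3 shallowest libraries, and they were the 2 highest of the 8 kidneys for Tuba1a, Tuba1c, Tuba4a, Tubb2a and Tubb2b and the 2 lowest for Tubb6. Tuba1a, Tuba1c, Tubb2a and Tubb2b also share sequence, as given above, while Tuba4a shares no window of 100 bases with another gene. The part of depth and of shared reads in this pattern was not tested.

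**Figure D4:**
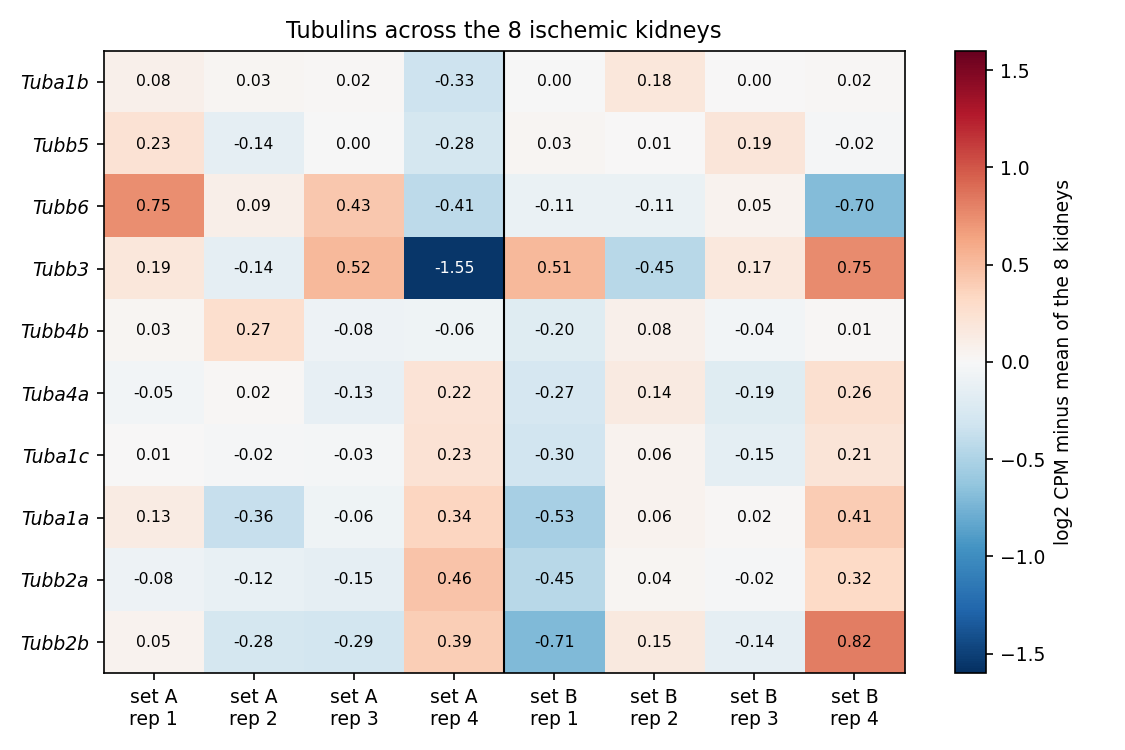
Deviation of each tubulin from its mean over the 8 ischemic kidneys, in log2 CPM (columns, kidneys; rows, genes; red, above the mean; blue, below). Replicate 4 of each set is red for Tubb2b (0.39 and 0.82) and Tubb2a (0.46 and 0.32) and blue for Tubb6 (-0.41 and -0.70).

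The genes whose pattern over the 8 ischemic kidneys was most like that of the 3 most abundant members were looked up among all 11664 genes tested, by Pearson correlation of log2 CPM. A search over so many genes with 8 points returns high values also for unrelated genes, so the names are a description only. For Tubb2a they were Slc2a1 (0.971), which encodes the glucose transporter GLUT1, Calb1 (0.967), which encodes the calcium-binding calbindin, and Pdk4 (0.966), a kinase that restrains pyruvate dehydrogenase. For Tubb5 they were Sh3kbp1 (0.971), an adaptor in receptor endocytosis, Shmt1 (0.961), an enzyme of folate metabolism, and Hist1h2bh (0.929), the last a histone gene. For Tubb2b they included Plagl1 (0.981), a zinc finger factor, and Hk1 (0.967), a hexokinase. Shmt1 (adjusted p = 0.101 for set A and 0.391 for set B, edgeR) and Plagl1 (0.201 and 0.0508) did not pass against the controls, and Hk1 had adjusted p = 0.0668 and 0.0299, with log2 fold changes of 0.65 and 0.77 and a difference between the sets of 0.12 (adjusted p = 0.9997, edgeR). Of the 3 genes most like Tubb2a among the ischemic kidneys, 1 differed from the controls in the opposite direction: the log2 fold change of Calb1 was -1.76 for set A and -2.04 for set B, that of Slc2a1 1.31 and 1.31, and that of Pdk4 2.13 and 2.24.

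The other tubulin genes were scarce, apart from Tubg1. Of 10 listed, Tuba3a, Tuba3b and Tubal3, known from testis and gut, held 0 counts in all 12 kidneys, and Tubd1 and Tube1, the δ- and ε-tubulins of centrioles, were under the filter. Tuba8, an α-tubulin, held 7 counts at most in a control kidney, and 1.67 to 11.3 CPM across set A and 0.539 to 11.0 across set B. It was called higher in each set (adjusted p = 0.00116 and 0.00119, edgeR). Tubb1, the β-tubulin of platelets, stayed at 3.12 CPM or less, and 0 of 1 tested platelet markers passed, with sums of at most 4.09 CPM. Tubb4a, known from neurons, held means of 3.75, 4.45 and 5.50 CPM and Tubg2, a γ-tubulin, 6.34, 7.15 and 9.59 CPM in the controls, set A and set B, and neither passed.

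Tubg1, the γ-tubulin that nucleates microtubules, stood at 188 ± 7.51 CPM in the controls, 227 ± 26.7 for set A and 268 ± 40.4 for set B. It was called higher in set B (log2 fold change 0.51 ± 0.13, adjusted p = 0.00791, edgeR) and did not pass in set A (0.27 ± 0.13, adjusted p = 0.171). The difference between the sets, 0.24 ± 0.13, did not pass either (unadjusted p = 0.0887). Of the 10 genes of the γ-tubulin ring complex, which caps the minus end and seeds new microtubules, 0 were called in set A and 1, Tubg1, in set B, where 10.9% of all genes were called higher. Their median log2 fold change was 0.22 for set A and 0.34 for set B.

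Newly made tubulin is folded by prefoldin and the ring-shaped chaperonin CCT and joined into dimers by the tubulin cofactors. Of 20 such genes tested, 4 were called higher in set A (the CCT subunit genes Cct2, Cct3, Cct7 and Tcp1) and 2 in set B (Cct3 and Pdcl3, a CCT partner). The cofactor-like gene Tbcel, whose product destabilises tubulin, was lower in each. Of all genes, 10.5% were called higher and 11.7% lower in set A, and 10.9% and 11.9% in set B, so the 2 higher of 20 in set B were near the share over all genes. Cct3 had means of 246 CPM in the controls, 377 for set A and 351 for set B, with log2 fold changes of 0.62 ± 0.15 (adjusted p = 0.00455, edgeR) and 0.51 ± 0.15 (adjusted p = 0.0165). Tbcel went from 187 CPM to 108 and 101, log2 fold changes of -0.80 ± 0.16 and -0.89 ± 0.16. The median of the 20 genes was 0.19 for set A and 0.16 for set B. The count called higher in set A was 2 without control replicate 4 or without replicate 2 or 3 of set A. In set B it was 0 without control replicate 4 or replicate 1 of set B, 1 without control replicate 2 or 3 or replicate 2 or 3 of set B, and 5 without replicate 4 of set B.

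Of 17 tested genes that modify tubulin, 4 were called higher in set A and 1 in set B, beside 10.5% and 10.9% of all genes, which the count in set B did not exceed. Hdac6, a deacetylase of α-tubulin, had means of 19.3 CPM in the controls, 39.8 for set A and 30.1 for set B. Ttll12, of the tubulin tyrosine ligase-like family, had 18.4, 39.1 and 29.6 CPM. Both were called in set A (log2 fold changes 1.05 ± 0.27 and 1.08 ± 0.30, adjusted p = 0.00768 and 0.0109, edgeR) and did not pass in set B (0.65 ± 0.27 and 0.68 ± 0.29). The differences of set B from set A, -0.40 ± 0.27 for Hdac6 and -0.40 ± 0.29 for Ttll12, did not pass either (unadjusted p = 0.156 and 0.188, edgeR). The other called genes were near the floor: Vash2, which encodes a vasohibin, was called in each set with at most 2.86 CPM, and Ttll11 in set A with at most 4.15 CPM, and both held 0 counts in all 4 controls. These counts rest on few kidneys: leaving out any 1 control, or replicate 3 or 4 of set A, left 2 genes in set A, and leaving out any 1 control, replicate 3 of set A or replicate 1 or 2 of set B left 0 in set B.

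Of 29 tested genes for microtubule-associated proteins, 5 were higher and 3 lower in set A, and 6 were higher and 2 lower in set B, beside 10.5% higher and 11.7% lower of all genes in set A and 10.9% and 11.9% in set B. Map4, the general stabiliser of non-neuronal microtubules, went from 52.9 CPM in the controls to 138 for set A and 121 for set B (log2 fold changes 1.38 ± 0.17 and 1.20 ± 0.17, adjusted p = 3.41e-06 and 1.90e-05, edgeR). Map7d1 went from 30.2 CPM to 78.1 and 54.7, and Map1b, better known from growing axons, from 3.54 CPM to 15.8 and 18.5. Mapt, which encodes tau, went the other way, from 197 CPM to 78.3 and 76.0 (-1.33 ± 0.17 and -1.38 ± 0.17, adjusted p = 7.67e-06 and 5.47e-06). The others called were Clasp1 and Mapre1, higher in each set, Map1a, higher in set B, Map7, lower in each set, and Mtus1, lower in set A. The medians of the 29 were 0.28 and 0.43.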

How the data were processed

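Stranded mRNA libraries of 12 kidneys were sequenced as single reads. Alignment to mm10 by STAR and counting per gene by HTSeq were done by the authors, and the deposited values are raw counts of 23420 genes, without normalization. Versions, the annotation release, the strand setting and the treatment of reads that map to several genes are not given in the sources used here.

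The tests were run in edgeR 4.0.16 (R 4.3.3): default filter (minimum count 10, minimum total 15; 11664 genes), TMM factors of 0.968 to 1.03, 1 model with 3 groups over all 12 kidneys, two-sided quasi-likelihood F-tests, Benjamini-Hochberg adjustment over all genes tested and a threshold of 0.05. Standard errors are the log2 fold change over the square root of F, and 95% intervals used the t quantile at the test's degrees of freedom. The series text counts 4 mice in each group, but whether the mice that gave control kidneys also gave ischemic ones is not given, so p-values measure the spread between kidneys. The members and gene lists were chosen with earlier results of these data known, and motifs after the sequences were seen. Named genes are the 10 members, the other tubulins, up to 3 genes per list and comparison with the smallest p (adjusted p under 0.05, mean log2 CPM of at least 1), and the 3 genes most like each of the 3 most abundant members, of which 1 is not reported here. Other genes named in a count were chosen after their values were seen. Correlations used log2 CPM with a prior count of 2.

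Alternatives were RLE size factors, total counts only, no filter, more than 1 CPM in 4 kidneys, only the 2 groups compared, DESeq2 1.42.0, limma-trend (limma 3.58.1), the replicate number as a block and leaving out each kidney. Shares were also computed on raw counts and, with the levels per kilobase, an alternative added after the data were seen, on unshared windows. Reads have no molecular identifiers, so floors cover only counting error. Shares, correlations and figures were made with pandas 2.3.3, NumPy 2.4.6 and matplotlib 3.10.9 in Python 3.11.15.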

Additional observations from a re-analysis of the deposited data

Results flagged for a closer look

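Of 60 groups of 4 kidneys examined, 10 levels and 10 shares in 3 groups, 6 had a kidney far from the other 3, by Dixon's test of the gap over the group's whole range. Chance flags about 1 in 20 groups. Tuba1a in control replicate 4 was 70.7 CPM, with the others at 118 to 124 CPM. Tuba1b in set A replicate 4 was 943 CPM, with the others at 1202 to 1248 CPM, and its share of α-tubulin mRNA in that kidney was 24.1%, with the others at 33.0% to 34.7%. Tuba1c in the same kidney was 1382 CPM, with the others at 1148 to 1182 CPM, and Tubb2a there was 4435 CPM, with the others at 2905 to 3047 CPM. Tuba1b in set B replicate 2 was 1337 CPM, with the others at 1179 to 1199 CPM. Set A replicate 4 accounts for 4 of the 6, and all 10 tubulins stayed called in set A without it.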

How the results depend on the processing

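The counts of called tubulins, 10 in set A, 10 in set B and 0 between the sets, were the same under all 20 alternatives, and the 400 fold changes against the controls kept their direction and their call, with a largest adjusted p of 0.00266 (edgeR, DESeq2 or limma). Between the sets, where 0 of 10 was called, 5 genes changed sign. Tuba1a was 0.008305 with RLE size factors, 0.0024 with total counts only and 0.008324 with DESeq2 on the log2 scale. Leaving out a kidney moved the log2 difference from -0.16 to 0.14 for Tuba1a, from -0.11 to 0.061 for Tuba4a, from -0.18 to 0.12 for Tubb2a, from -0.19 to 0.33 for Tubb2b and from -0.13 to 0.0049 for Tubb4b. The cause was not tested. Over all genes, 1 gene differed between the sets in the main test, and 0 to 27 did under the alternatives, the most with DESeq2. The replicate numbers did not pair the kidneys: 0 of 12 pairs had a correlation of deviations over 0.1, and 2 of 24 comparisons placed a kidney closest to its own number. With the replicate number as a block, 2491 genes were called in set A and 2531 in set B, 10 tubulins in each, 1 gene and 0 tubulins differed between the sets, and the genes that modify tubulin gave 2 higher calls in set A and 0 in set B. Counts over gene lists moved by over 1.5 times, or to or from 0, in 35 cases, and 34 shares moved by over 1 SD on raw counts or unshared windows. DESeq2, RLE size factors and no filter gave 5, 4 and 1 folding genes higher in set B, and fitting only the 2 groups compared gave 0 modifying genes there. Tubb3 rested on the fewest counts of the members, 1 to 81 in the controls.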

Other observations

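Genes of microtubule motors outside mitosis, with their light chains, dynactin subunits and regulators, were listed as well, and 25 were tested. In set A 6 were called higher and 4 lower, and in set B 6 were higher and 5 lower, beside 10.5% higher and 11.7% lower of all genes in set A and 10.9% and 11.9% in set B. Dynll1 and Dynll2, which encode the same kind of dynein light chain, went opposite ways. Dynll1 had means of 311 CPM in the controls, 720 for set A and 628 for set B (log2 fold changes 1.21 ± 0.16 and 1.01 ± 0.16, adjusted p = 1.44e-05 and 1.06e-04, edgeR). Dynll2 had 409, 150 and 168 CPM (-1.45 ± 0.18 and -1.29 ± 0.18, adjusted p = 4.94e-06 and 2.00e-05). Ndel1, a dynein regulator, went from 196 CPM to 94.9 and 96.7, and Klc4, a kinesin light chain, from 51.1 CPM to 22.5 and 14.0. The medians of the 25 log2 fold changes were 0.20 and 0.18. The others called higher, in each set, were Dync1h1, Dync1i2, Dync1li2, Klc1 and Kif5a, the last going from 9.40 CPM to 42.0 and 47.3. The others called lower were Kif16b in each set and Kif21a in set B.

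The reader of the tubulin mRNA feedback, Ttc5, was scarce, with means of 5.95 CPM in the controls, 6.13 for set A and 5.66 for set B, and it passed in neither comparison (log2 fold changes 0.04 ± 0.62 and -0.07 ± 0.62, adjusted p = 0.981 and 0.968, edgeR). Of the 9 genes listed for the feedback, Ttc5 and the CCR4-NOT subunits, 1 was higher and 1 lower in each set, near the shares over all genes, which were 10.5% and 11.7% for set A and 10.9% and 11.9% for set B. Cnot3 went from 165 CPM to 247 and 269 (0.58 ± 0.13 and 0.70 ± 0.13), and the deadenylase gene Cnot6l from 716 CPM to 511 and 500.0 (-0.49 ± 0.13 and -0.52 ± 0.13). The medians of the 9 were -0.17 and -0.09.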
